A study of Sus scrofa with 15 samples.

Results

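Mitochondrially encoded complex I subunits are the 7 genes ND1 (ENSSSCG00000018065), ND2 (ENSSSCG00000018069), ND3 (ENSSSCG00000018084), ND4 (ENSSSCG00000018087), ND4L (ENSSSCG00000018086), ND5 (ENSSSCG00000018091) and ND6 (ENSSSCG00000018092). The rule that chose them uses these Ensembl pig identifiers and no measured value. All 7 were among the 16660 genes of the count table and all 7 passed the filter on low expression. They were measured by RNA-seq in LLC-PK1 cells, an epithelial line from the renal proximal tubule of a pig, in 15 libraries of 5 plasmids with 3 libraries each. NC cells received an empty plasmid, which the labels name FLAG-floxP-neo-pH11 and the methods of the study pCAG-floxP-neo-pH11. WT cells received the plasmid carrying wild-type human PKD2 with a FLAG tag. Tg1, Tg2 and Tg3 cells received it with mutant PKD2, namely c.A1532T/p.D511V in Tg1, c.T1967G/p.L656W in Tg2 and c.C2224T/p.R742X in Tg3. Cells of all groups, NC included, were thus transfected with a plasmid that has a neomycin cassette and a CAG promoter. Transfection was transient, so each library pools transfected and untransfected cells of the same line, and the share of transfected cells is not given in the sources used here. The replicates were separate wells of the same cell line, so p-values measure the spread between wells.

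Complex I, the NADH:ubiquinone oxidoreductase, takes electrons from NADH, passes them to ubiquinone and pumps protons across the inner mitochondrial membrane. Its 7 mitochondrially encoded subunits form the core of the membrane arm, while the other subunits are encoded in the nucleus and imported. The mitochondrial genome is transcribed as long precursors from both strands that are cut mostly at tRNAs. ND6 is the sole mRNA read from the opposite strand to all the others, and in human cells its mRNA is known to have little or no poly(A) tail, which bears on libraries made with oligo(dT) beads. ND4L and ND4 overlap and stay on a joint mRNA, and the ends of ND5 and ND6 overlap on opposite strands, so reads from an overlap cannot be assigned with certainty. Whether the libraries kept strand is not given in the sources used here. Counts of ND6 may therefore include RNA of the opposite strand across the whole gene. The proximal tubule is rich in mitochondria because its salt and solute transport consumes much ATP.

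The libraries held 20216200 to 26132196 counts each, and 11553 genes with a mean of at least 2 CPM (counts scaled by library size) were tested. The epithelial and proximal tubule identity of the line was visible in LRP2 (213.9 to 306 CPM), CDH1 (300.2 to 424 CPM) and KRT8 (2138 to 2497 CPM), whereas UMOD of the thick ascending limb reached at most 0.315 CPM and PTPRC of leukocytes at most 0.0459 CPM. Among the 24 markers listed, COL1A2, a collagen gene listed as a fibroblast marker, was also high, at 849.8 to 1023 CPM, while PDGFRB was at 0.0931 CPM or less. GGT1 and AQP2 were not found by symbol. The mitochondrially encoded mRNAs, 13 in all, took 2.66% to 3.42% of the counts. Most proximal tubule markers were lower in the mutants, as the members were. Of 9 tested, 7 had a log2 fold change below 0 in each mutant against NC. EdgeR called 5 lower in Tg2 against NC (LRP2, CUBN, ANPEP, VIL1 and SLC5A2), against 3.7% of all genes. At an unadjusted p-value under 0.05, 5 were lower in Tg3 and 3 in Tg1, against 9.34% and 11.1% of all genes. At such a p-value, 1 marker was higher in Tg2 and 1 in Tg1. The median log2 fold changes of the 9 markers were -0.29 in Tg2, -0.24 in Tg3, -0.13 in Tg1 and -0.026 in WT. Their summed level was 1067 to 1113 CPM over the NC libraries and 915.9 to 1067 CPM over those of Tg2. The 4 epithelial markers summed to 3060 to 3160 CPM in NC and to 3325 to 3409 CPM in Tg2, with 1 of 4 below 0 in Tg2 against NC. The part of these marker changes in the results on the members was not tested. In bulk RNA, fewer cells with a transcript and less of it per cell cannot be told apart.

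In NC cells, the levels on the TMM-normalized CPM scale ranged from 210.2 ± 19.96 CPM for ND4L to 1465 ± 68.9 CPM for ND5 (SD, n = 3). Levels of different genes can be compared only per length. Divided by the gene length in the RefSeq annotation of Sscrofa11.1, the level in NC was highest for ND1, which lies next to the ubiquinone site, at 1296 ± 45.8 CPM per kilobase (SD, n = 3). ND4, ND2 and ND5, the antiporter-like subunits of the membrane arm, followed at 936 ± 50.04, 886 ± 42.7 and 805 ± 37.8 CPM per kilobase (SD, n = 3). ND6, ND4L and ND3, the small subunits between ND1 and ND2 in the arm, were lowest. They were at 734 ± 36.5, 708 ± 67.2 and 677 ± 19.3 CPM per kilobase (SD, n = 3). ND6, ND4L and ND3 are also the shortest members, with 528, 297 and 346 bases. The length correction ignored fragment size, which lowers the levels of short genes. The part of this in their low rank was not tested. ND1 lay 360.4 CPM per kilobase above ND4, against summed SDs of 95.9. ND2 and ND5 lay 80.9 CPM per kilobase apart, about their summed SDs of 80.5, and the other neighbours in this order differed by less than their summed SDs.

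The spread between wells was much larger than the counting error. The coefficient of variation of a member within a plasmid was 1.47% to 18.04%, while counting error alone would give 0.523% to 1.66%. The wells of a plasmid moved together across the members. In WT, replicate 2 was the lowest of the 3 libraries for all 7 genes and replicate 3 the highest for all 7. In Tg3, replicate 2 was lowest for all 7 and replicate 1 highest for all 7. In Tg2, replicate 1 was lowest for all 7 and replicate 3 highest for 6, and in NC, replicate 3 was highest for all 7. Tg1 was more uniform than WT, Tg2 and Tg3 for every member, and its highest library exceeded its lowest by 1.03-fold for ND2 to 1.155-fold for ND4L.

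**Figure D1:**
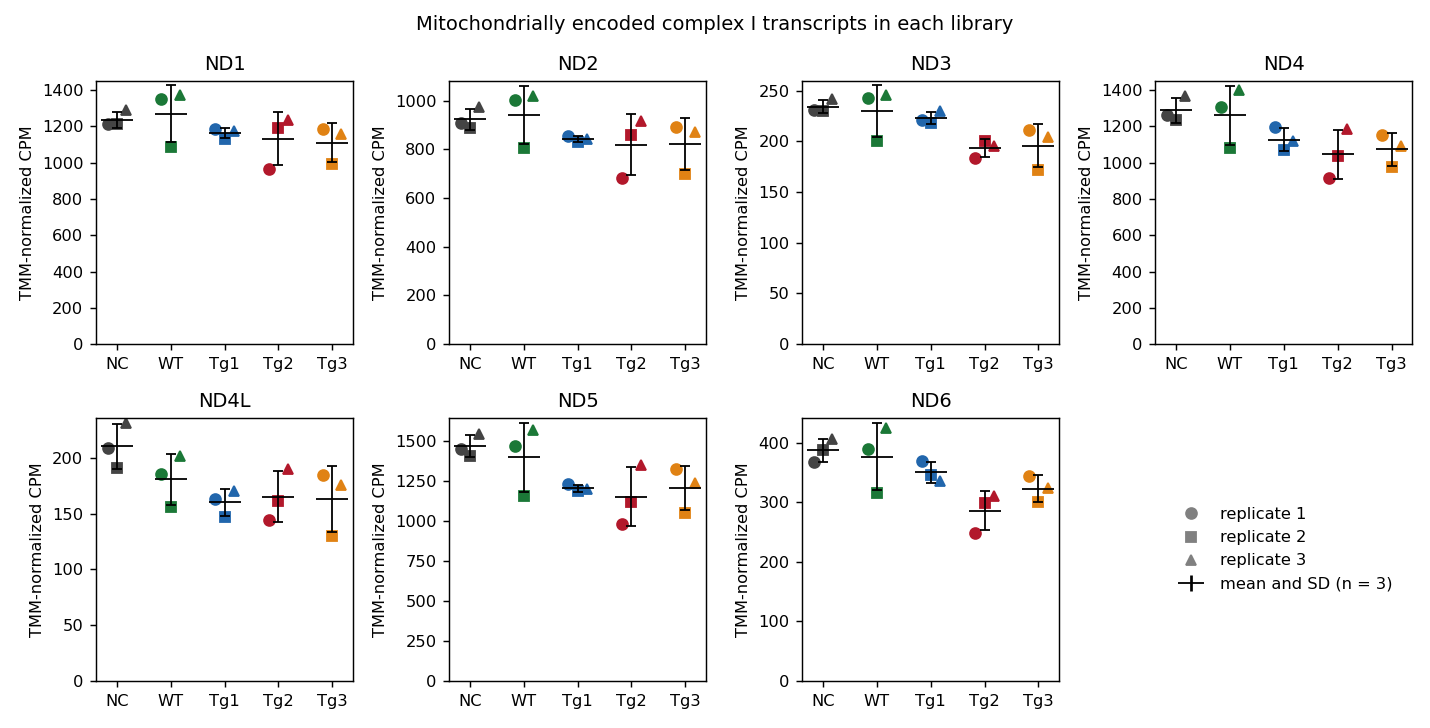
TMM-normalized CPM (vertical axis, from 0) of the 7 mitochondrially encoded complex I transcripts in each library of the 5 plasmids (horizontal axis), with point shapes for the replicate number and black lines for the mean and SD of 3 libraries. WT replicate 2, Tg2 replicate 1 and Tg3 replicate 2 are the lowest points of their plasmid in every panel, and the Tg2 libraries of ND6 lie between 249 and 311 CPM, all below the NC libraries.

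Against NC, edgeR called members in Tg2 and not in WT, Tg1 or Tg3, and no difference between plasmids in these effects was tested other than the comparisons with WT. In Tg2, ND6 and ND3 were differentially expressed genes (DEGs), for which the study asked an adjusted p-value up to 0.05 and a log2 fold change of at least 0.26 in size, and both were lower in Tg2. Of all genes tested, 8.43% were DEGs in this comparison and 3.7% were DEGs with lower expression in Tg2, against 2 of 7 members. DESeq2 called 4 of 7 lower (ND3, ND4, ND5 and ND6), against 4.57% of all genes, and 5 of 7 were lower at an unadjusted p-value under 0.05, against 16.9% of all genes. All 7 members had a log2 fold change below 0 (51.7% of all genes did), with a median of -0.30 against -0.0066 over all genes.

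ND6 was at 368, 389 and 406 CPM in NC replicates 1, 2 and 3. In Tg2 it was at 249, 299 and 311 CPM. All 3 Tg2 libraries thus lay below all 3 NC libraries, and replicate 1 was the lowest. The mean was 388 ± 19.3 CPM in NC and 286 ± 32.5 CPM in Tg2 (SD, n = 3), a log2 fold change of -0.44 ± 0.10 (SE), which is a change of -26.2%. Its Benjamini-Hochberg adjusted p was 0.021 in the quasi-likelihood test of edgeR. The exact permutation test, two-sided, gave p = 0.1, the smallest that 3 libraries against 3 allow. Whether RNA of the opposite strand contributed to the ND6 counts was not tested.

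ND3, a small subunit that carries a loop near the ubiquinone site, was at 231, 230.2 and 242 CPM in NC replicates 1, 2 and 3. In Tg2 it was at 183, 201 and 196 CPM. The groups did not overlap, and the range within Tg2 was narrower for ND3 than for the other members, with a highest library 1.095-fold the lowest (1.25- to 1.37-fold for the other 6). Its mean was 234 ± 6.67 CPM in NC and 193 ± 8.96 CPM in Tg2 (SD, n = 3), a log2 fold change of -0.28 ± 0.08 (SE) and an edgeR adjusted p = 0.0377. This fold change lies just past the threshold of 0.26.

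ND5, ND4L and ND4 were not called by edgeR in Tg2, although their log2 fold changes were beyond that of ND3. ND5 was at 1448, 1407 and 1541 CPM in NC and at 982, 1119 and 1348 CPM in Tg2, a log2 fold change of -0.35 ± 0.12 (SE) and an edgeR adjusted p = 0.0586. ND4 was at 1265, 1236 and 1367 CPM in NC and at 914, 1038 and 1186 CPM in Tg2, a log2 fold change of -0.30 ± 0.10 (SE) and an edgeR adjusted p = 0.0565. ND4L had a log2 fold change of -0.35 ± 0.13 (SE) and an edgeR adjusted p = 0.0822. For these 3 genes too, all Tg2 libraries lay below all NC libraries, so that 5 of 7 members did not overlap with NC, against 18% of all genes that lay wholly below NC. ND1 and ND2 overlapped, with 965 to 1238 CPM in Tg2 against 1211 to 1288 CPM in NC for ND1 and 680.2 to 918 CPM against 888 to 973 CPM for ND2. Their log2 fold changes were -0.13 and -0.17, and their edgeR adjusted p-values were 0.365 and 0.294.

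The Tg2 calls changed when single libraries were left out, while the directions did not. Over all 15 fits that left out 1 library, the log2 fold change was between -0.50 and -0.35 for ND6 and between -0.31 and -0.24 for ND3. With each of the 6 Tg2 and NC libraries left out in turn, ND6 and ND3 were called in 2 of 6 fits, without Tg2 replicate 3 and without NC replicate 2, and the number of members called ranged from 0 to 5. It was 0 without Tg2 replicate 1, without Tg2 replicate 2, without NC replicate 1 and without NC replicate 3, where the edgeR adjusted p-values of ND6 were between 0.0593 and 0.0895, and it was 5 without Tg2 replicate 3. DEGs over all genes ranged from 0 to 1880 over the same kind of fits.

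**Figure D2:**
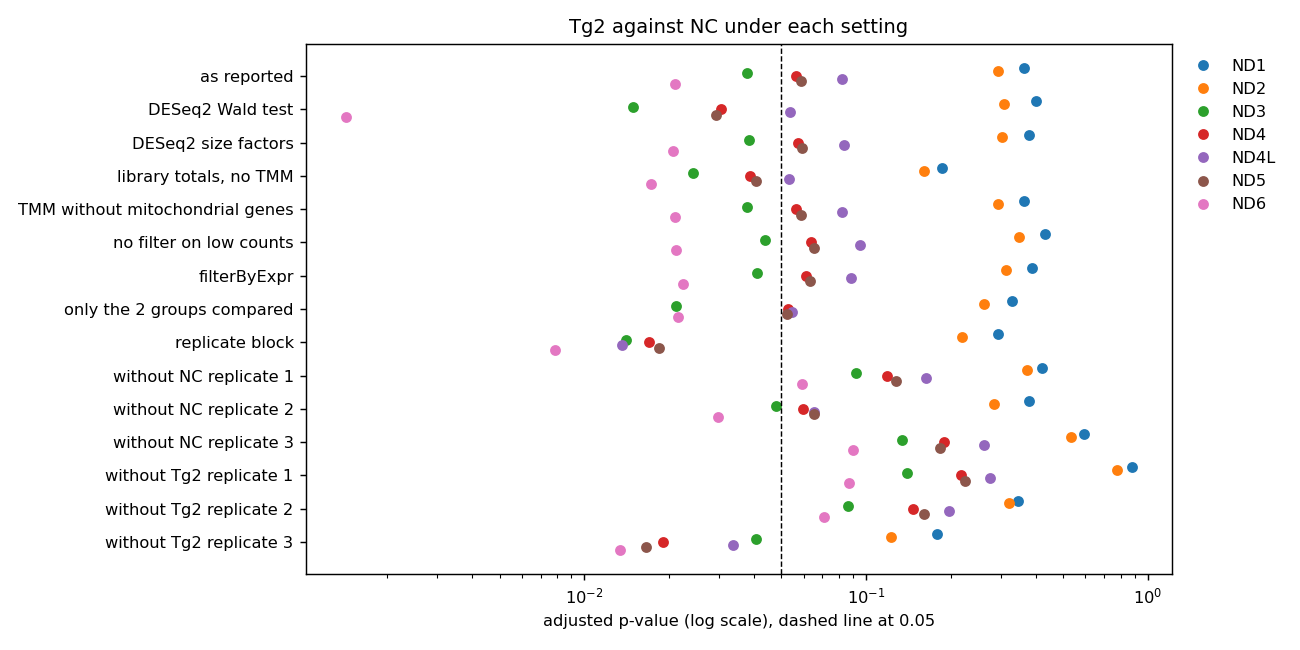
Adjusted p-values (horizontal axis, log scale, dashed line at 0.05) of the 7 members for Tg2 against NC, in the fit as reported and under each alternative setting or left-out library (vertical axis). ND6 and ND3 lie left of the line in the fit as reported, at 0.021 and 0.0377, while ND1 and ND2 lie right of it in every setting drawn.

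In Tg1, edgeR called 0 of 7 members against NC, DESeq2 also called 0, and 2 members had an unadjusted p-value under 0.05. Over all genes, 1.19% were DEGs, DESeq2 called 1.59% lower and 11.1% were lower at an unadjusted p-value under 0.05. The 2 were ND4L and ND5. ND4L was at 209, 191 and 231 CPM in NC and at 163, 147 and 169.8 CPM in Tg1 replicates 1, 2 and 3. No Tg1 library reached the lowest NC library, and the log2 fold change was -0.39 (standard error 0.13, adjusted p = 0.121 from edgeR). ND5 was at 1228, 1184 and 1195 CPM in Tg1, also wholly below NC, with a log2 fold change of -0.29 ± 0.12 (SE) and an edgeR adjusted p = 0.204. All 7 members had log2 fold changes below 0 in Tg1, from -0.39 for ND4L to -0.071 for ND3, with a median of -0.15 (49% of all genes were below 0). The libraries of 6 members, all but ND6, lay wholly below NC, against 14.8% of all genes. ND3 was at 221, 218 and 229.8 CPM in Tg1, so its highest library lay just under the lowest of NC.

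In Tg3, edgeR called 0 of 7 members and 0 genes in all (0% of genes), DESeq2 called 0 members, and 5 members had an unadjusted p-value under 0.05. Over all genes, DESeq2 called 0.156% lower and 9.34% were lower at an unadjusted p-value under 0.05. These 5 were ND3, ND4, ND4L, ND5 and ND6, with log2 fold changes from -0.36 for ND4L to -0.26 for ND3 and edgeR adjusted p-values from 0.167 to 0.243. ND6 was at 345, 301 and 324 CPM in Tg3 replicates 1, 2 and 3, all below NC, and ND3 was at 211, 172 and 204 CPM, also below NC. ND4L was the most variable member, at 185, 129.8 and 175 CPM in Tg3, where replicate 2 stood below the other two. Again 6 of 7 members lay wholly below NC, all but ND2, against 13.9% of all genes, and the median log2 fold change of the 7, all below 0 (50.6% of all genes were), was -0.26. Leaving out any of the 15 libraries, edgeR called 0 members in Tg1 and 0 in Tg3.

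WT differed least from NC. EdgeR and DESeq2 each called 0 of 7 members, 0 had an unadjusted p-value under 0.05, and 0% of all genes were DEGs. DESeq2 called 0.00866% of all genes lower, and 2.4% were lower at an unadjusted p-value under 0.05. The libraries of all 7 overlapped with NC (4.69% of genes lay wholly below NC). The log2 fold changes ran from -0.22 for ND4L, with a standard error of 0.13, to 0.037 for ND1, with 0.098, and the median was -0.032, with 5 of 7 below 0 (51.8% of all genes). ND6 was at 390, 315 and 425 CPM in WT replicates 1, 2 and 3, so 1 library lay below and 1 above the whole NC range. Without WT replicate 2, the log2 fold change of ND6 was 0.072, and those of ND3, ND4 and ND5 also changed sign.

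**Figure D3:**
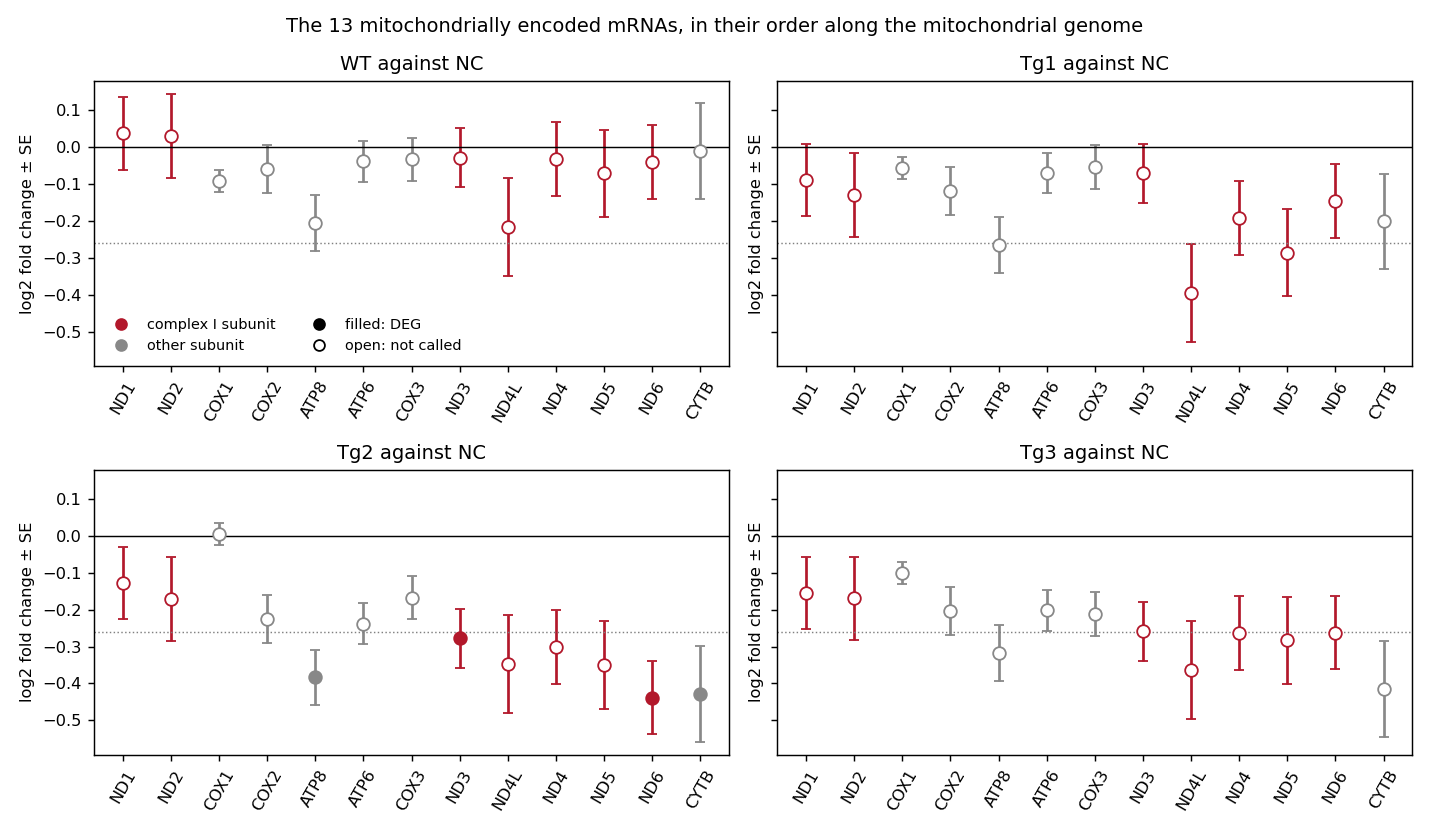
Log2 fold changes with standard errors (vertical axis) of the 13 mitochondrially encoded mRNAs against NC in their order along the mitochondrial genome (horizontal axis), for WT, Tg1, Tg2 and Tg3, with complex I subunits in red, other subunits in grey, DEGs filled and a dotted line at the threshold of -0.26. In Tg2 and Tg3, ND1 and ND2 lie nearer to 0 than the members from ND3 to ND6, and the DEGs are ND3, ND6, ATP8 and CYTB in Tg2.

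The 4 comparisons with NC share the NC libraries and are not independent. By mean level, NC was highest for ND3, ND4, ND4L, ND5 and ND6, with WT next, and WT was highest for ND1 and ND2, with NC next. The 3 mutants took the lower places for every member. Tg2 was lowest for ND2, ND3, ND4, ND5 and ND6, Tg3 for ND1 and Tg1 for ND4L. Neighbours in these orders mostly overlapped, and the libraries were separate just between NC and Tg1 for ND1 and ND2 and between Tg1 and Tg3 for ND3.

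The mutants were also compared with WT. ND6 was lower in Tg2 than in WT, with a log2 fold change of -0.40 ± 0.10 (SE) and an edgeR adjusted p = 0.0359, and it was the single member called, while 5.92% of all genes were DEGs and 2.61% were DEGs with lower expression. DESeq2 called 1 member, against 4.25% of all genes lower, 4 members were lower at an unadjusted p-value under 0.05, against 15.9%, and all 7 were below 0, against 50.8%. The 249, 299 and 311 CPM of Tg2 lay below the lowest WT library, replicate 2 at 315 CPM, and the other 6 members overlapped (12.4% of genes lay wholly below WT). CYTB, the core of complex III, differed by -0.42 on the log2 scale with an edgeR adjusted p = 0.0537. With the WT and Tg2 libraries left out in turn, ND6 was called in 2 of 6 fits, without WT replicate 2, when 6 members were called, and without Tg2 replicate 3, when 3 were. Without Tg2 replicate 1 or 2 or WT replicate 1 or 3, 0 members were called. The log2 fold change of ND6 stayed between -0.51 and -0.30 over all 15 fits that left out 1 library.

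In Tg1 against WT, edgeR and DESeq2 each called 0 members, 0 had an unadjusted p-value under 0.05, and 0.0692% of all genes were DEGs. Over all genes, DESeq2 called 0.58% lower and 8.92% were lower at an unadjusted p-value under 0.05. The log2 fold changes were between -0.21 and -0.042, all 7 below 0 (48.4% of all genes), and the libraries of all 7 overlapped (8.45% of genes lay wholly below WT). In Tg3 against WT, both tools called 0 members, 3 members (ND3, ND4 and ND6) had an unadjusted p-value under 0.05, and 0% of genes were DEGs. Over all genes, DESeq2 called 0.476% lower and 9.55% were lower at an unadjusted p-value under 0.05. The log2 fold changes in Tg3 were between -0.23 and -0.15, all 7 below 0 (49.5% of all genes), and the libraries of all 7 overlapped (10.3% of genes lay wholly below WT). Without WT replicate 2, however, edgeR called 5 members in Tg3 against WT, ND1, ND3, ND4, ND5 and ND6, and 1321 genes in all.

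The other 6 mitochondrially encoded mRNAs encode CYTB of complex III, COX1, COX2 and COX3 of complex IV, and ATP6 and ATP8 of the ATP synthase. CYTB and ATP8 were DEGs in Tg2 against NC, both lower, while 3.7% of all genes were DEGs with lower expression. CYTB, the gene beyond ND6 on the genome, was at 924 CPM in NC and 687 CPM in Tg2 on average, a log2 fold change of -0.43 ± 0.13 (SE) and an edgeR adjusted p = 0.0443. ATP8 had a log2 fold change of -0.38 ± 0.08 (SE) and an edgeR adjusted p = 0.0152. COX2, ATP6 and COX3 were not called, with log2 fold changes of -0.23, -0.24 and -0.17 and edgeR adjusted p-values of 0.037, 0.0216 and 0.068. COX2 and ATP6 thus passed the adjusted p-value and not the fold-change threshold. COX1, the most abundant of the 13, was at 17234 CPM in NC and 17287 CPM in Tg2, with a log2 fold change of 0.0044 ± 0.030 (SE) and an edgeR adjusted p = 0.932. With the libraries of Tg2 and NC left out in turn, CYTB and ATP8 were each called in 2 of 6 fits. In Tg3 against NC, edgeR called 0 of these 6 mRNAs and 0% of all genes. All 6 were lower at an unadjusted p-value under 0.05, against 9.34% of all genes. DESeq2 called ATP8, whose edgeR log2 fold change was -0.32 (DESeq2 adjusted p = 0.0293), against 0.156% of all genes called lower.

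The members were then set against the mitochondrial mRNA pool, a measure that does not depend on the scaling between libraries. They took 18.01 ± 0.330% of the 13 mRNAs' counts in NC and 18.5 ± 1.83% with the WT plasmid, and Tg1, Tg2 and Tg3 were at 16.9 ± 0.131%, 16.1 ± 1.51% and 17.1 ± 1.06% (SD, n = 3). COX1 took 54.0 ± 0.623% in NC and 58.2 ± 1.92% in Tg2 (SD, n = 3). ND6 made up 1.21 ± 0.0307% of the pool in NC and 0.961 ± 0.0708% in Tg2 (SD, n = 3), a difference of -0.34 on the log2 scale.

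Relative to the pool, the Tg2 libraries lay wholly below NC for ND3, ND4, ND5 and ND6 and the Tg3 libraries for the same 4 genes. The Tg1 libraries did so for ND4, ND4L and ND5, and in WT this held for 0 members. Each of these differences had p = 0.1 in the exact permutation test, two-sided, and an adjusted p of 0.377 over the 49 tests of this family, so none passed, as the design cannot reach a smaller p. ND1 and ND2 had log2 differences in their part of the pool between -0.078 and 0.095 in the 4 comparisons with NC, all with overlapping libraries.

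The proportions among the 7 members also differed between plasmids. ND1 took 21.3% to 21.9% of the members' summed counts in the NC libraries and 22.0% to 24.5% in the 12 libraries with PKD2. ND2 took 16.0% to 16.1% in NC and 16.2% to 17.7% in the others, and ND5 took 25.3% to 25.7% in NC and 23.0% to 25.2% in the others. For these 3 genes, all NC libraries thus stood apart from all libraries of WT, Tg1, Tg2 and Tg3, with ND1 and ND2 lower and ND5 higher in NC. ND6 took 5.76% to 6.13% in Tg2 and 6.398% to 7.091% in the other 12 libraries, so that Tg2 stood apart from every other plasmid. These 4 separations were picked from 35 combinations of member and plasmid after their values were seen, and they are given as a description with no test.

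**Figure D4:**
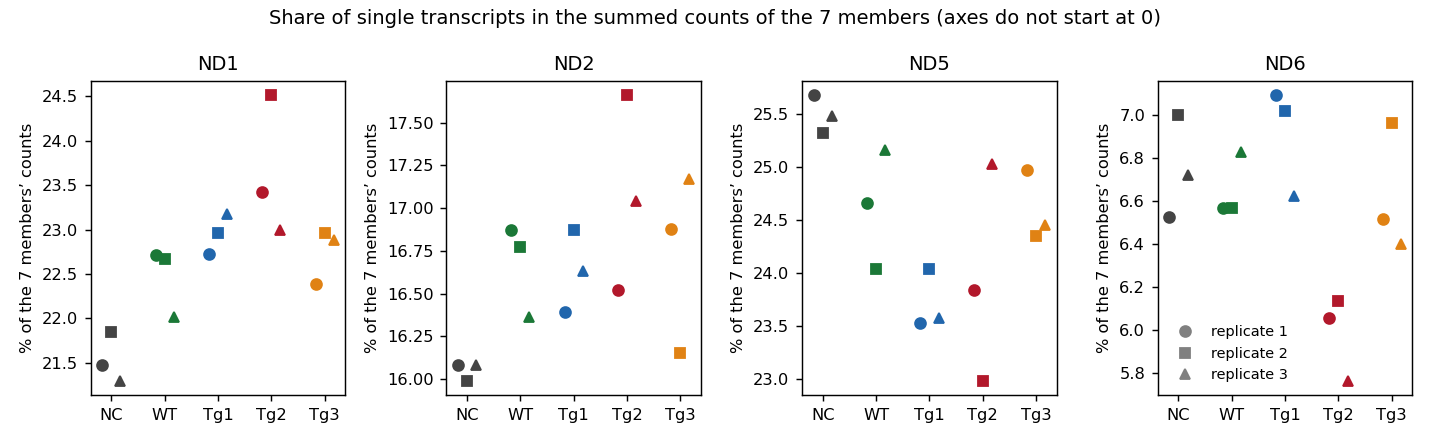
Percent of the summed counts of the 7 members (vertical axes, not starting at 0) taken by ND1, ND2, ND5 and ND6 in each library of the 5 plasmids (horizontal axis), with point shapes for the replicate number. The NC libraries lie below all others for ND1 and ND2 and above all others for ND5, and the Tg2 libraries lie below all others for ND6, at 5.76% to 6.13%.

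Few nuclear genes of complex I were called. Of 37 nuclear subunits listed, 28 were found by symbol and tested. Against NC, edgeR called 0 of 28 in WT, Tg1 and Tg3, with 0, 6 and 2 at an unadjusted p-value under 0.05, and DESeq2 called 0 in each. Over all 11553 genes, edgeR called 0%, 1.19% and 0%, and DESeq2 called 10, 243 and 45 genes. At this unadjusted p-value 0, 0 and 1 of the 28 were lower, against 2.4%, 11.1% and 9.34% of all genes. For higher genes no all-gene share is given here. In Tg2, 4 had an unadjusted p-value under 0.05. Lower at this p-value were 1 of 6 core and 2 of 22 accessory subunits, against 16.9% of all genes. Both tools called 1 of the 28 in Tg2, while edgeR called 8.43% of all genes. This was NDUFAB1, the acyl carrier protein of mitochondria and an accessory subunit, which was higher. It rose from 109 CPM in NC to 145 CPM in Tg2 on average, a log2 fold change of 0.41 ± 0.10 (SE) and an edgeR adjusted p = 0.0252, and was called in 2 of 6 fits that left out a Tg2 or NC library. Against WT it was also higher in Tg2, with a log2 fold change of 0.40 (edgeR adjusted p = 0.0363).

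The median log2 fold change of the 28 nuclear subunits against NC was 0.0086 for WT, 0.074 for Tg1, -0.045 for Tg2 and 0.020 for Tg3, while the medians of the 7 mitochondrial subunits were -0.032, -0.15, -0.30 and -0.26. Over all genes the medians lay between -0.0066 and 0.0034. In Tg1, 26 of the 28 nuclear subunits had log2 fold changes above 0 and all 7 mitochondrial subunits below 0 (49% of all genes were below 0). NDUFS1, a core subunit that carries iron-sulfur clusters, had the smallest unadjusted p-value of the nuclear core list, with -0.16 ± 0.039 (SE) in Tg2 and an edgeR adjusted p = 0.0254, under the fold-change threshold. Of 15 assembly factors tested, 0 were called by edgeR or DESeq2 in WT, Tg1, Tg2 or Tg3 against NC. Over all genes, edgeR called 0%, 1.19%, 8.43% and 0%. At an unadjusted edgeR p-value under 0.05 there were 1, 0, 2 and 1 of these factors, and NDUFAF3 had the smallest, 0.0125, with 0.18 in Tg2. Of these, 0, 0, 1 and 0 were lower, against 2.4%, 11.1%, 16.9% and 9.34% of all genes. The difference between the nuclear and the mitochondrial medians was not tested.

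**Figure D5:**
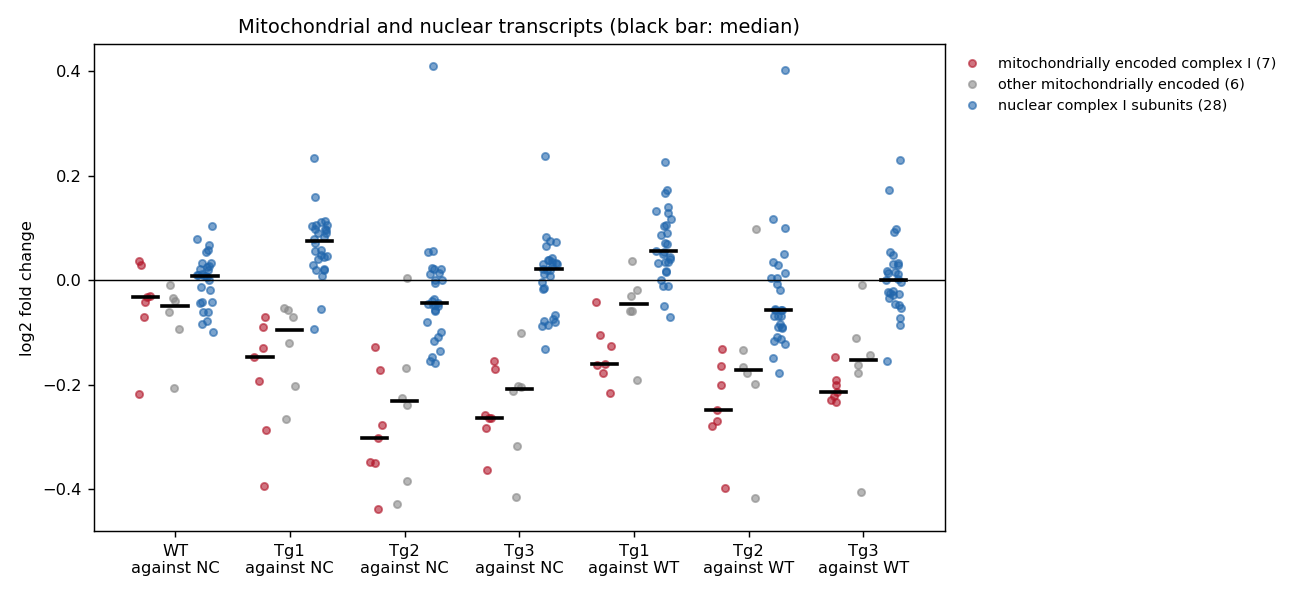
Log2 fold changes (vertical axis) of the 7 mitochondrially encoded complex I genes, the other 6 mitochondrially encoded mRNAs and the 28 nuclear complex I subunits in each of the 7 comparisons (horizontal axis), 1 point for each gene and a black bar for the median. The medians of the 7 members lie between -0.30 and -0.15 in the mutants against NC and those of the other 6 mRNAs between -0.23 and -0.095, while the nuclear medians lie between -0.045 and 0.074.

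Among genes for mitochondrial transcription and RNA processing, 23 were tested and POLRMT, the mitochondrial RNA polymerase, was the single DEG against NC, higher in Tg2. In that comparison 8.43% of all genes were DEGs. At an unadjusted edgeR p-value under 0.05 there were 1, 3, 6 and 4 of the 23 for WT, Tg1, Tg2 and Tg3. Of these, 1, 1, 2 and 0 were lower, against 2.4%, 11.1%, 16.9% and 9.34% of all genes. The higher ones were 0, 2, 4 and 4, for which no all-gene share is given here. POLRMT was at 57.0 CPM in NC and 68.6 CPM in Tg2 on average, a log2 fold change of 0.27 ± 0.07 (SE) and an edgeR adjusted p = 0.0305. It was called in 0 of 6 fits that left out a Tg2 or NC library. DESeq2 called it in Tg3 as well. PPRC1, a coactivator of nuclear genes for mitochondrial biogenesis, rose in Tg2 from 102 to 125 CPM, a log2 fold change of 0.29 ± 0.06 (SE) and an edgeR adjusted p = 0.0145, and was called in 2 of 6 such fits. It was also higher in Tg2 than in WT, with a log2 fold change of 0.32 (edgeR adjusted p = 0.0239). TFAM, which packages mitochondrial DNA and starts its transcription, was not called, with -0.12 in Tg2 (edgeR adjusted p = 0.0723), and neither was LRPPRC, which stabilizes mitochondrial mRNAs, with 0.031 (adjusted p = 0.536). TFAM and LRPPRC are named for their roles and were chosen after their values were seen.

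The mean profile of the 7 members over the 15 libraries, with each member standardized on the log2 CPM scale, was compared with 10120 other genes that have a symbol. Of the other mitochondrial mRNAs, CYTB had a Pearson r of 0.973 with it, COX2 0.946, COX3 0.877, ATP6 0.861, ATP8 0.680 and COX1 0.133. The nuclear genes most like it were TMEM178A (r = 0.953), GXYLT1 (0.947), KMT5B (0.947), NHS (0.946) and OSBPL3 (0.939), and the most opposite were SPCS1 (-0.945), IP6K1 (-0.939), FLT1 (-0.936), RASSF4 (-0.936) and CDC42SE1 (-0.934). High values of either sign were common, since the 5th and 95th percentiles over all 10120 genes were -0.869 and 0.817. The points share their libraries and plasmids, and r is a description over 15 libraries. Tg2 replicate 1 and Tg3 replicate 2 had the lowest values of the profile, -1.84 and -1.61, and WT replicate 3 and NC replicate 3 the highest, 1.42 and 1.28.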

How the data were processed

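RNA-seq counts of 15 LLC-PK1 libraries were used. The authors selected poly(A) RNA with oligo(dT) beads, ran Salmon on the cDNA sequences of Ensembl for the pig, and the deposited values are raw whole-number counts per gene. How transcripts were joined to genes and the strand of the libraries are not given in the sources used here. Copies of mitochondrial sequence in the nucleus and overlapping genes can share reads. Genes whose CPM averaged at least 2 entered edgeR 4.0.16 (R 4.3.3), with TMM normalization, glmQLFit and glmQLFTest on all 15 libraries in a model of group means without a replicate block, and Benjamini-Hochberg adjustment over 11553 genes. DESeq2 1.42.0, which the study used, was an alternative. The standard error is the log2 fold change divided by the square root of F. Single values were compared by exact two-sided permutation tests. Pairs of replicates differed beyond counting error (chi-square over its degrees of freedom 2.9 to 46.6).

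Symbols came from a table that named 13373 of the 16660 identifiers, and gene lengths and order from the RefSeq annotation of Sscrofa11.1, without coordinates. Length correction ignored fragment size, which lowers the levels of short genes. The rule for the members uses no measured value, but the members, gene lists and thresholds were all chosen with earlier results of these data known. Genes named are the 7 members, the other 6 mitochondrial mRNAs, from each nuclear list the DEGs against NC (up to 3 per comparison) or else the gene with the smallest unadjusted p-value, and the 5 genes most and least like the members by Pearson r. Outside this rule, some cell type markers are named, and TFAM and LRPPRC for their roles. Same-numbered libraries were checked for pairing by the correlation of their deviations from the group means, which for WT and NC was 0.154, 0.544 and 0.457 in replicates 1, 2 and 3. All 3 were above 0.1, but the deviations of 3 wells sum to 0. The 3 correlations are thus not independent, and they do not establish that the wells were paired. In the other 6 comparisons at least 1 replicate was below 0.1. The labels give no batch.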

Additional observations from a re-analysis of the deposited data

How the results depend on the processing

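The number of members called was 2 in Tg2 against NC, 1 (ND6) in Tg2 against WT and 0 in the other 5 comparisons. In Tg2 against NC it was 4 with the DESeq2 Wald test (ND3, ND4, ND5 and ND6), 4 with library totals in place of TMM and 5 with the replicate number as a block (without ND1 and ND2). In Tg2 against WT it was 2 with library totals, 2 with the replicate block (ND4 and ND6) and 0 in a fit of only the 2 groups compared, where 0 genes were called in all. In Tg1 against NC it was 1 with the replicate block (ND4L) and 2 in a fit of only the 2 groups (ND4L and ND5). The block changed no other member count, and the cause of these changes was not tested. The block changed no call in WT against NC either, and the labels link libraries of different plasmids only by the replicate number.

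With single libraries left out, the number of members called ranged from 0 to 5 in Tg2 against NC, from 0 to 6 in Tg2 against WT and from 0 to 5 in Tg3 against WT, and was 0 in all 15 fits of the other 4 comparisons. Calls over all genes moved as well: with the block, 246 in Tg1, 1624 in Tg2 and 11 in Tg3 against NC, and 66, 1578 and 111 against WT, instead of 138, 974, 0, 8, 684 and 0. With DESeq2, WT, Tg1, Tg2 and Tg3 against NC gave 10, 243, 1252 and 45, and the mutants against WT gave 76, 1184 and 108.

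In WT against NC, the log2 fold changes changed sign when libraries were left out, with ranges of -0.024 to 0.136 for ND1, -0.031 to 0.131 for ND2, -0.083 to 0.061 for ND3, -0.113 to 0.068 for ND4, -0.164 to 0.049 for ND5 and -0.138 to 0.072 for ND6. That of ND3 in Tg1 against WT ranged from -0.132 to 0.012. Under the 4 scalings tried, all 7 members were below 0 in every mutant against NC and against WT, and the median of all genes was furthest from 0 at -0.084, in Tg2 against NC with library totals. Depth did not limit the members, whose counting error was at most 1.66%.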

Other observations

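Nuclear genes of the other respiratory complexes were examined beside the mitochondrial mRNAs. Against NC, edgeR called 0 of the 4 genes of complex II (succinate dehydrogenase), 0 of 7 nuclear genes of complex III, 0 of 9 of complex IV and 0 of 9 of the ATP synthase, for each of the 4 plasmids with PKD2. DESeq2 also called 0 of these 29 genes, and 2, 6, 4 and 2 had an unadjusted p-value under 0.05 for WT, Tg1, Tg2 and Tg3. Over all genes, edgeR called 0%, 1.19%, 8.43% and 0%. The counts at this p-value take both directions, and 0 genes were lower in Tg1. Lower were 1 gene of complex III and 1 of the ATP synthase in WT. In Tg2 these were 2 of complex III and 1 of complex IV, and in Tg3 1 of each of these complexes. For lower genes alone, the all-gene shares at this p-value were 2.4%, 11.1%, 16.9% and 9.34%. No all-gene share of higher genes is given here. The smallest unadjusted p-values of these lists were all in Tg1, with higher levels than in NC. COX4I1, a subunit of complex IV, differed by 0.19 ± 0.046 (SE) on the log2 scale, with an edgeR adjusted p = 0.0436, under the fold-change threshold. SDHC of complex II had 0.11 (adjusted p = 0.236), CYC1 of complex III 0.10 (adjusted p = 0.121) and ATP5F1D of the ATP synthase 0.14 (adjusted p = 0.0908), all from edgeR. In Tg1, 9 of 9 nuclear genes of complex IV, 9 of 9 of the ATP synthase and 4 of 4 of complex II had log2 fold changes above 0, with medians of 0.069, 0.062 and 0.065, and 5 of 7 nuclear genes of complex III were above 0 with a median of 0.030, while all 13 mitochondrial mRNAs were below 0. Over all genes, 49% were below 0 in Tg1. Of 6 genes for mitochondrial DNA maintenance tested, 0 were called by edgeR or DESeq2 against NC. At an unadjusted edgeR p-value under 0.05 there were 0, 1, 1 and 1 for WT, Tg1, Tg2 and Tg3. Of these, 0, 1, 1 and 0 were lower, beside the all-gene shares of lower genes given above. MGME1, a nuclease of mitochondrial DNA, had the smallest unadjusted p-value, 0.0357, with -0.24 in Tg1.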
